A study of Mus musculus with 12 samples.

Results

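The 304 clusters described here are stretches of mouse chromosomes in which open chromatin regions lie unusually close together. All 121336 regions of the deposited accessibility table were sorted by position, and neighbours separated by under 3000 bp were chained. Regions of 1500 bp or wider were then set aside, and chains with 8 or more remaining regions were kept. The clusters hold 2891 of the 119605 regions under 1500 bp, which form 76640 chains in all, 52073 of them a single region. The assay was OmniATAC, a form of ATAC-seq in which a transposase cuts accessible DNA, so that reads pile up where chromatin is open. Cells came from bone marrow of C57BL/6 littermates at 8 to 12 weeks of age that were wild type (WT) or lacked both copies of the upstream regulatory element of Spi1 (UREd/d, written URE). The deletion was present in every cell of the URE animals, and no other allele or treatment was given. LSK cells (lineage-negative, Sca-1+ and c-Kit+, enriched in stem and multipotent progenitor cells) and GMP cells (lineage-negative, Sca-1-, c-Kit+ and CD16/32+, the granulocyte and monocyte progenitors) were sorted from them, with 3 mice per genotype and cell type (WT-LSK and WT-GMP as controls, URE-LSK and URE-GMP with the deletion). Both sorts are mixtures, and a smaller share of open cells and a lower opening per cell cannot be told apart in bulk material.

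Spi1 encodes PU.1, an ETS family transcription factor that binds purine-rich sites around a GGAA core and that myeloid and lymphoid development depends on. Its upstream element is an enhancer that keeps Spi1 expression high in stem and myeloid progenitor cells, and its deletion lowers PU.1 without removing it. Dense groups of open regions are often found around genes with cell type specific expression, where many enhancers and promoters sit side by side and may be bound by different factors.

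Sequences of the regions with the lowest and the highest log2 fold change in LSK are shown for 4 clusters, picked after their values were seen, so that neighbours with unlike responses can be read side by side. Each is the central part, at most 250 bases, of an open region, read from the plus strand of the GRCm38 reference of RefSeq. Capitals mark any match to 6 motifs searched on both strands: the PU.1 site GAGGAAGT, the general ETS site CCGGAAGT, the RUNX site AACCACA, the C/EBP site TTGCNNAA, the GATA site AGATAAG and the AP-1 site TGANTCA.
Spi1, lowest, chr2:91083121-91083370, promoter: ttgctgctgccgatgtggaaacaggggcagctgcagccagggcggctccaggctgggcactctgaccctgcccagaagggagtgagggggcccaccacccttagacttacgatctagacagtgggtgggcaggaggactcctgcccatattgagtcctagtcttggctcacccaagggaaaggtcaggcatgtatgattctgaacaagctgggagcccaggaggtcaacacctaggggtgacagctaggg
Spi1, highest, chr2:91084159-91084378, intron: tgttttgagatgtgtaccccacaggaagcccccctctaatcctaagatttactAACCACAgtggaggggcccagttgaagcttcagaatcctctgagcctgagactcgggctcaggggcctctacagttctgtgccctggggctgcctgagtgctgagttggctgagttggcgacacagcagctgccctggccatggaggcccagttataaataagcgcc
Plac8, lowest, chr5:100570187-100570436, intron: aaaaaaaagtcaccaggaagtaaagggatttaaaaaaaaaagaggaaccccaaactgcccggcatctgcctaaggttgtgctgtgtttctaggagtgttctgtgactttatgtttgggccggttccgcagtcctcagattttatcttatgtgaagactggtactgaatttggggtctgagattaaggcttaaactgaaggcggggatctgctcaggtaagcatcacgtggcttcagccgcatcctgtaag
Plac8, highest, chr5:100567516-100567765, intron: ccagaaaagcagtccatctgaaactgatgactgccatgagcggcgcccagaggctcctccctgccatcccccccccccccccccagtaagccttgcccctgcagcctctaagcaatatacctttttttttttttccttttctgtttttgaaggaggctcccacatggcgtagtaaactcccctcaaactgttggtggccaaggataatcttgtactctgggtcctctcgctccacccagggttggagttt
Rin3, lowest, chr12:102354437-102354686, promoter: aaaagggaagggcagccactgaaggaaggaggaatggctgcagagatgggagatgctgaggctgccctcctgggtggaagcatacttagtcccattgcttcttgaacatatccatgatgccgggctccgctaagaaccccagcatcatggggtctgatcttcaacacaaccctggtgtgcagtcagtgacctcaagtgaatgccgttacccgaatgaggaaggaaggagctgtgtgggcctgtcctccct
Rin3, highest, chr12:102349022-102349271, intron: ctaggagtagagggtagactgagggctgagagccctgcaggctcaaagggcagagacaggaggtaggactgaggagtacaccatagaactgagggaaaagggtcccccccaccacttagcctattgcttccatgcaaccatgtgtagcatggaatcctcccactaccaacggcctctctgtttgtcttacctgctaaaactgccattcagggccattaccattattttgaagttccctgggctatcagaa
nearest Cryaa, lowest, chr17:31739524-31739762, intergenic: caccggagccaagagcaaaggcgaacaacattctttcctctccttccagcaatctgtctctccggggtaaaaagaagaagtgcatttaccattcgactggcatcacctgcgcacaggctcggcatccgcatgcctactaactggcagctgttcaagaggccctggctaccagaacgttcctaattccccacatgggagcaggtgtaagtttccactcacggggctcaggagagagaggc
nearest Cryaa, highest, chr17:31731958-31732207, intergenic: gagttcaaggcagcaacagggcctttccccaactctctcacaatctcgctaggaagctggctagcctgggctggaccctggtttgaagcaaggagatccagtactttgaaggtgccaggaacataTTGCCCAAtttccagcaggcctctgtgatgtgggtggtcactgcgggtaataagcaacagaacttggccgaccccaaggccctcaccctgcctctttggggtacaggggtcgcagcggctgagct
The next 4 sequences, of 40 bases each, are PU.1 sites from the named clusters outside Spi1, picked after their values were seen. Their regions were chosen among those that hold the site, and had some of the largest falls in LSK among these. Regions without the site could also fall far, such as that at 127587761 in Lrp1 (-4.47 in LSK). The sequences are written on the minus strand, so that the site, in capitals, reads in the same direction in each.
Ncf4, chr15:78244072-78244111, intergenic: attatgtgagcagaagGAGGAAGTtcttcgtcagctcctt
Krt80, chr15:101364101-101364140, promoter: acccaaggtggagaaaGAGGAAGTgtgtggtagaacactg
Plac8, chr5:100569375-100569414, intron: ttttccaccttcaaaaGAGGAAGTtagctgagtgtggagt
Lrp1, chr10:127597395-127597434, other exon: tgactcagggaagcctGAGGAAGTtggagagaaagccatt

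Library totals lay between 23072701 and 62204826 counts, of which the clusters' regions took 2.58% to 2.85%. Replicates of a group correlated at 0.923 to 0.983 over the members on the log2 scale, lowest in WT-GMP. As a check of the deletion, the region of the Spi1 cluster with the highest WT level (chr2:91082790-91083700) lay between 36.003 and 46.2 CPM (reads scaled to library size; for sums over clusters, to the reads in regions under 1500 bp) in the 6 WT libraries and between 0 and 0.143 CPM in the 6 URE libraries. The coordinates of the deleted element itself are not given in the sources used here. Start site regions of Mpo and Elane, granule genes of GMP, were at 18.4 ± 2.17 and 18.0 ± 0.498 CPM (SD, n = 3) in WT-LSK. In WT-GMP they were at 106.6 ± 8.58 and 59.7 ± 8.07 CPM. Ctsg rose from 3.32 ± 0.468 to 48.4 ± 8.72 CPM, but Prtn3 differed less, at 14.8 ± 1.43 and 18.8 ± 0.806 CPM. Kit, a marker of both sorts, was at 38.1 ± 0.913 and 39.5 ± 3.82 CPM in the same order. Genes of LSK differed little or moderately. Cd34 was at 24.8 ± 1.71 and 22.4 ± 5.97 CPM, Flt3 at 55.4 ± 7.36 and 37.7 ± 4.30 CPM, and Hlf at 28.4 ± 0.193 and 19.6 ± 5.95 CPM. No region lay within 2 kb of a start site of Ly6a (Sca-1) or Fcgr3 (CD16), nor of the B and T cell genes Cd79a, Pax5, Cd3e and Cd3g, and the start site of Klf1, an erythroid gene, was open at 38.8 to 52.5 CPM in the 12 libraries. A start site region of Xist, the RNA of the inactive X chromosome, was at 12.3 to 17.0 CPM in 6 libraries (replicates 2 and 3 of both WT groups and replicate 2 of both URE groups) and at 0 to 0.291 CPM in the other 6.

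The clusters had a median of 9 regions, 129 of them exactly 8, and spanned 5230 to 33423 bp. Of the 304, 260 overlapped a protein-coding gene and 84 held no promoter, taken here as a region within 500 bp of an annotated transcript start. Introns held 45.4% of the members and intergenic sequence 24.6%, against 41.2% and 32.2% of all regions, while promoters made up 19.1% and 18.9%. The members were wider than regions in general, with a median of 375 against 322 bp, and their median level was 4.25 against 2.91 CPM. Signal within a cluster was concentrated: its strongest region held a median of 36.2% of the summed reads. The cluster with the most regions, 20, lay at Adgrg1, an adhesion G protein-coupled receptor gene of stem cells (chr8:94973206-95002450), followed by Iqsec1, a guanine exchange factor of ARF GTPases, with 19.

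The sums of reads over whole clusters seldom changed between genotypes. A sum was called at an adjusted p under 0.05, from the quasi-likelihood test of edgeR over all chains, and a log2 fold change above 1 in size. In LSK 14 of 304 clusters were called (4.61%), all 14 lower in URE, where 35.4% of all chains were called (22.8% lower and 12.6% higher). In GMP 10 clusters were called (3.29%, against 37.6% of all chains), 7 lower and 3 higher, beside 22.9% and 14.7% of all chains. The share fell with the number of regions: single regions were called in 41.4% in LSK and 43.3% in GMP, chains of 2 to 3 regions in 25% and 28.1%, and chains of 4 to 7 in 11.9% and 13.4%. Most cluster sums moved little, with 255 of 304 within 0.5 of 0 on the log2 scale in LSK and 243 in GMP. The median over the clusters was 0.05 in LSK and 0.12 in GMP, beside 0.07 and 0.05 over all chains. Without the fold limit, 163 clusters (90 higher) passed in LSK and 184 (118 higher) in GMP. The directions moved with the scaling: with offsets fitted on GC content, 3 of 14 calls in LSK and 9 of 15 in GMP were higher in URE, and with DESeq2's size factors in edgeR, 1 of 12 and 6 of 13.

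**Figure D1:**
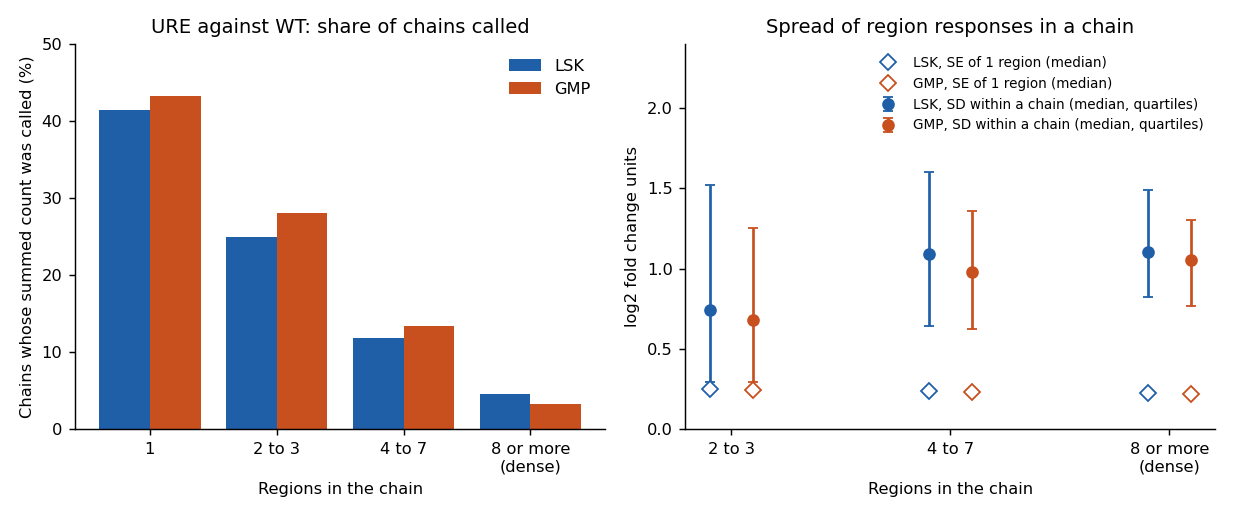
Left, percent of chains whose summed count was called between URE and WT, by the number of regions in the chain, for LSK and GMP; the bars fall from 41.4% and 43.3% for single regions to 4.61% and 3.29% for the dense clusters. Right, the SD of the log2 fold changes of the regions within a chain (dots, medians, with quartiles as bars) beside the median standard error of 1 region (diamonds); in dense clusters the SD is 1.11 in LSK and 1.06 in GMP, and the standard error 0.224 and 0.218.

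The Plac8 cluster, at a gene of a small cysteine-rich protein of myeloid cells, lost signal in LSK (chr5:100566838-100575378, 8 regions). Its summed level was 58.7, 65.6 and 57.8 CPM in WT-LSK and 7.23, 11.1 and 13.4 CPM in URE-LSK. In GMP it was 139, 113 and 103 CPM in WT and 132, 134 and 121 CPM in URE. The genotypes thus stood apart in LSK, which the rule that named it for a small p there required, and overlapped in GMP. The sum fell by 2.52 ± 0.16 (log2, SE) in LSK (adjusted p = 7.93e-09), and its log2 fold change in GMP was 0.13 ± 0.15 (adjusted p = 0.474).

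At Krt80, a keratin gene, the summed level fell from 35.5, 38.6 and 40.0 CPM in WT-LSK to 8.29, 12.5 and 10.3 CPM in URE-LSK, a change of -1.88 ± 0.12 (adjusted p = 6.58e-09). All 3 URE-LSK libraries lay below the WT-LSK libraries, which the rule that named it for a small p required. Of the 8 regions, 7 were called lower. In GMP the change was -0.35 ± 0.11, within the fold limit. The other clusters named here that were called lower in LSK were Spi1 (-2.82 ± 0.13), Rin3, a RAB5 guanine exchange factor gene (-1.52 ± 0.17), Ncf4, which encodes a subunit of the phagocyte NADPH oxidase (-1.33 ± 0.13), Pde2a, a cyclic nucleotide phosphodiesterase gene (-1.30 ± 0.11), and Lrp1, a receptor of the LDL receptor family (-1.23 ± 0.08). A further 5, between -1.51 and -1.04, lay at Med12l and P2ry13, Ccl6, Amz1, Cdh23 and Vsir, and Acoxl. Notch2 lay at the edge of the fold limit (-1.002).

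In GMP mostly other clusters passed the limits. The Meis1 cluster, at the gene of a homeobox partner of HOX proteins in stem cells (chr11:19007514-19027610, 13 regions), was at 193, 198 and 204 CPM in WT-LSK and at 194, 187 and 152 CPM in URE-LSK. Its levels were 145, 107 and 136 CPM in WT-GMP and 55.8, 62.6 and 56.1 CPM in URE-GMP. The genotypes overlapped in LSK, and in GMP all URE libraries lay below WT. The sum changed by -1.15 ± 0.10 in GMP (adjusted p = 2.57e-07) and by -0.16 ± 0.10 in LSK (adjusted p = 0.194). Of its regions, 10 of 13 were called lower in GMP and 0 in LSK.

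The cluster inside Tg, thyroglobulin, which also covers Sla, the Src-like adaptor of immune cells that lies within it, fell by 1.38 ± 0.09 in GMP, from 111, 104 and 106 to 41.5, 45.9 and 35.8 CPM, and its change in LSK was -0.72 ± 0.09. Retreg1, a receptor for autophagy of the endoplasmic reticulum, changed by -1.09 ± 0.08 in GMP, although the call was lost with GC offsets (-0.70). The other clusters called lower in GMP lay at Spi1, Amz1, Cacna2d4 and Lrtm2, and Syt8 and Tnni2. Amz1 (-1.38 ± 0.13 in LSK and -1.12 ± 0.13 in GMP) and Spi1 were the 2 clusters called in both cell types, out of 22 called in either. The share of all chains called in both was not taken. Part of the difference lies in the fold limit: Tg/Sla also fell in LSK, and Lrp1 in GMP (-0.58), inside that limit. A test of the difference between cell types, given below, called 7 of the clusters called lower in LSK, but not Lrp1, Tg/Sla or Retreg1.

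The 3 clusters that rose in GMP held no promoter. Pnpla1, a gene of skin lipid metabolism, went from 27.8, 28.5 and 27.8 CPM in WT-GMP to 66.3, 64.9 and 59.1 CPM in URE-GMP (1.18 ± 0.09, adjusted p = 3.82e-08), with 24.5, 24.2 and 22.6 CPM in WT-LSK and 23.5, 26.3 and 22.5 CPM in URE-LSK. The cluster nearest Cryaa, a crystallin gene (chr17:31728917-31740348), rose by 1.06 ± 0.12 from 26.3, 25.6 and 19.6 to 45.8, 49.1 and 53.6 CPM. In both of these the GMP genotypes did not overlap, which the rule for naming them required. The Cryaa call was lost without WT-GMP replicate 3 (0.93).

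**Figure D2:**
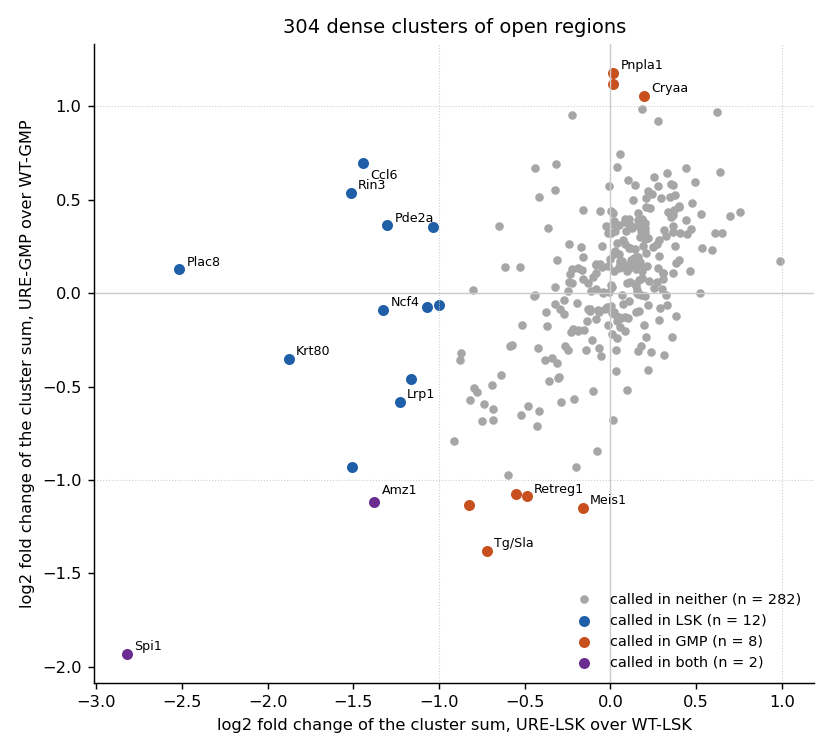
log2 fold change of the summed reads of each of the 304 dense clusters in LSK (x axis) and in GMP (y axis), with the clusters called in LSK, in GMP, in both or in neither in different colours and dotted lines at the fold limit. Plac8, Krt80, Rin3 and Pde2a lie to the left, between -0.35 and 0.54 in GMP, Meis1 and Tg/Sla lie low at -0.16 and -0.72 in LSK, and Spi1 lies at the lower left.

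**Figure D3:**
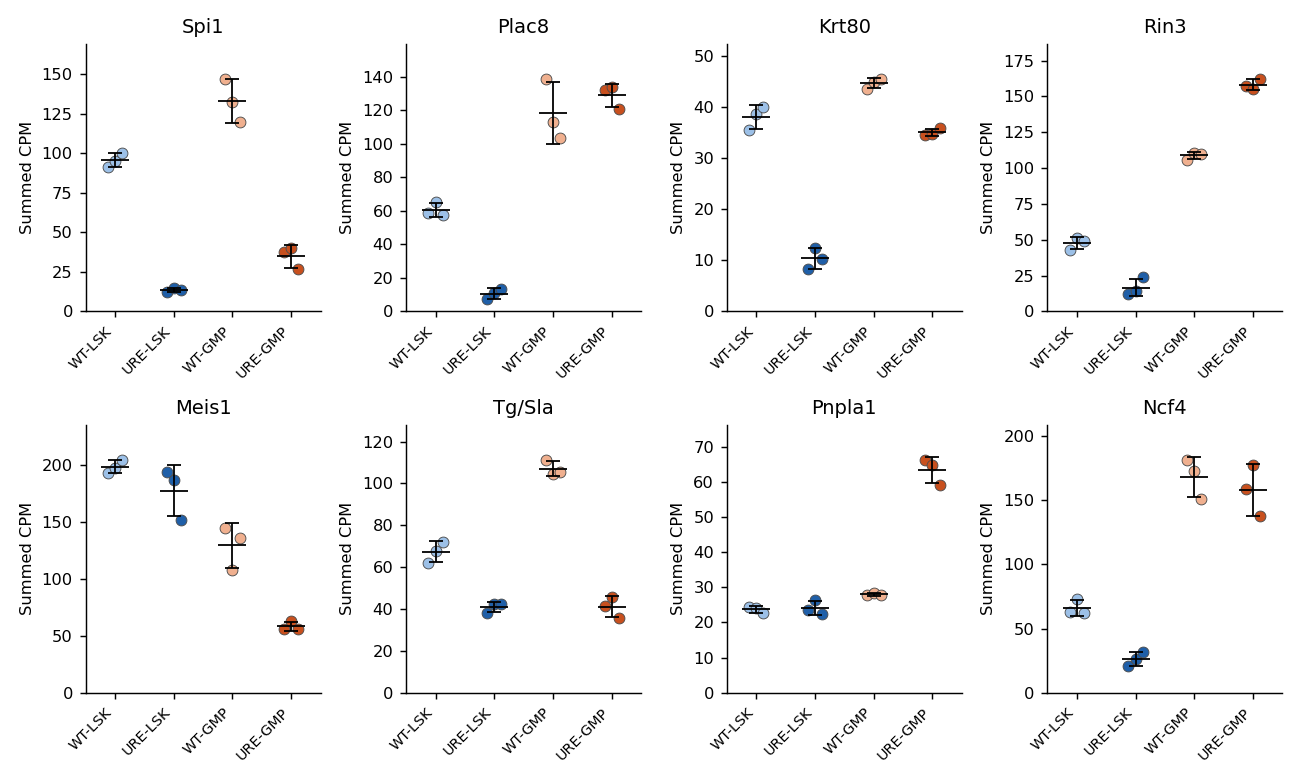
Summed CPM of 8 named clusters in each of the 12 libraries (dots), with the mean and SD of 3 mice per group (bars); each axis starts at 0. Plac8, Krt80, Rin3 and Ncf4 are low in URE-LSK, Meis1 and Tg/Sla are low in URE-GMP, and Pnpla1 is high in URE-GMP.

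The genotype effect differed between the cell types in 13 clusters (4.28%, against 14.8% of all chains), tested as an interaction. All 13 values were positive (9.65% of all chains were called in this direction), that is, a smaller fall or a larger rise in GMP, although 8 of 16 calls were negative without promoter regions and 9 of 48 when wider gaps were chained, and 7 of the 13 were the clusters called lower in LSK at Plac8, Ccl6, Rin3, Pde2a, Krt80, Acoxl and Ncf4. Plac8 (2.64 ± 0.22, adjusted p = 3.61e-06) and Pde2a (1.66 ± 0.16, adjusted p = 8.80e-06) had the smallest p-values. Meis1 was just short of the fold limit in the other direction (-0.99 ± 0.15, adjusted p = 2.55e-04). It was called in 11 of the alternatives that kept the fold limit, at values down to -1.21 (22 alternatives in all, counting the fit without that limit). Between WT-GMP and WT-LSK, 15 clusters were called (4.93%, against 35.4% of all chains), 13 higher in GMP, where 16.7% of all chains were, and 2 lower. The largest rise was at Pgd (2.71), an enzyme of the pentose phosphate pathway, followed by Acoxl (1.81), while Rbfox3 (-1.27) and Mylk (-1.14) were lower; these 4 were picked after their values were seen. This count moved with the settings and was 27 with GC offsets, 23 without URE-LSK replicate 3 or URE-GMP replicate 3 and 24 without WT-GMP replicate 3.

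Single regions inside the clusters changed far more often than their sums. In LSK 866 of 2891 members were called (30%, against 37.5% of all regions), 600 of them lower (20.8%, against 23.9%) and 266 higher (9.2%, against 13.6%). In GMP 927 were called (32.1%, against 39.7%), 557 lower (19.3%, against 24.1%) and 370 higher (12.8%, against 15.6%). The share of lower calls among all calls was 69.3% in LSK and 60.1% in GMP, and dropped to 51.4% and 46.2% with GC offsets and to 52.0% and 45.2% with loess offsets. Both cell types shared 422 lower and 145 higher calls, and 3 regions were called in opposite directions. These counts were not taken over all regions, so they cannot be called particular to the clusters. The strongest region of a cluster was called least: 9.54% of these 304 regions in LSK and 6.91% in GMP, against 32.4% and 35.0% of the other regions. Member promoters were called in 16.5% in LSK and 19.3% in GMP (all promoters, 14.6% and 16.3%), and members outside promoters in 33.1% and 35.1% (all such regions, 42.9% and 45.1%).

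The regions of a cluster did not answer the deletion as a block. An F test of unequal log2 fold changes among the regions of a chain called 294 of 304 clusters in LSK (96.7%, against 62.9% of all chains of 2 or more regions) and 298 in GMP (98%, against 63.8%). This test has more to detect in longer chains: it called 57.7% of chains of 2 to 3 regions and 87.1% of chains of 4 to 7 in LSK. Between regions of 1 cluster the log2 fold changes had a median SD of 1.11 in LSK and 1.06 in GMP, while the median standard error of a single region was 0.224 and 0.218. Chains of 4 to 7 regions had nearly the same SD, 1.09 and 0.981. Which cluster a region belonged to accounted for 9.57% of the variance of the members' log2 fold changes in LSK and 13.1% in GMP. In chains of 2 to 3 regions the same share was 27.1% and 41.7%, as a description over chains of unlike length. Regions called lower and regions called higher stood together in 131 clusters in LSK (43.1%) and in 144 in GMP (47.4%), against 19.9% and 20.5% of chains of 4 to 7 regions, which have fewer regions to call. Clusters with lower calls alone numbered 117 and 94, with higher calls alone 30 and 47, and with no called region 26 and 19.

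**Figure D4:**
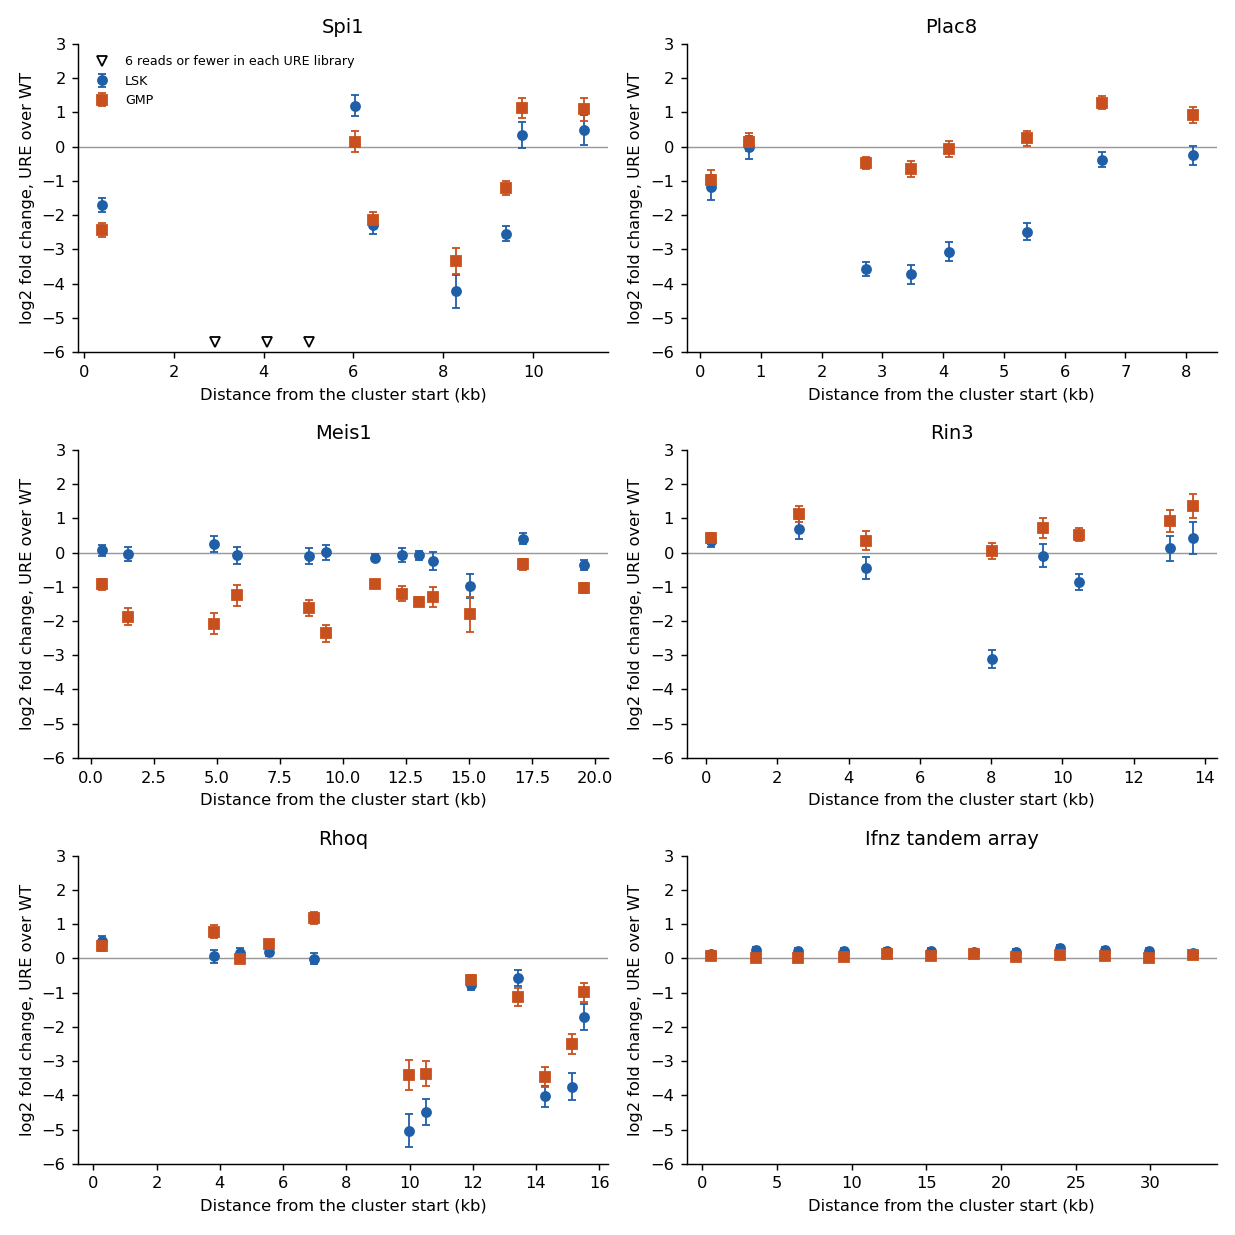
log2 fold change of each region (URE over WT, with its standard error) by distance from the start of its cluster, for 5 named clusters and the Ifnz array, LSK as circles and GMP as squares. In Plac8 the middle regions fall far more in LSK than in GMP, and in Meis1 nearly all regions fall in GMP. In Rin3 1 region falls in LSK, and in Rhoq the first 5 regions stay near 0 or above while regions further on fall. The triangles in Spi1 mark the 3 regions with 6 reads or fewer in each URE library.

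The cluster upstream of and into Spi1 (chr2:91078245-91089732, 10 regions) was the most uneven in both cell types by SD. In it 3 neighbouring regions, starting at 91080885, 91082170 and 91082790, had 0 to 6 reads in each URE library. In WT libraries the same regions had 115 to 2110 reads, so no fold is given for them. Without these 3 regions the sum still fell in LSK (-1.46 ± 0.14, adjusted p = 2.35e-07), but in GMP it changed by -0.73 ± 0.13 (adjusted p = 1.78e-04) and was no longer called, and this alternative was added after the data were seen. Of the 7 regions left, the first, at 91078245, fell from 16.4, 15.01 and 16.7 CPM in WT-LSK to 4.40, 6.20 and 4.27 CPM in URE-LSK (-1.70 ± 0.19) and also in GMP (-2.42 ± 0.20). The last region, at 91089030, with a PU.1 site, rose in GMP from 11.9, 8.71 and 3.53 to 19.1, 19.0 and 12.7 CPM (1.09 ± 0.33, adjusted p = 0.00986), and the region at 91084159, shown above, rose in LSK (1.20 ± 0.31). The unequal response remained in the 7 regions (adjusted p = 3.60e-14 in LSK and 3.94e-16 in GMP).

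In the Plac8 cluster the fall in LSK was largest in 4 adjacent regions in the gene's introns and promoter. The region at 100570026, whose sequence is given above, went from 11.1, 11.8 and 10.7 CPM to 0.785, 1.23 and 0.555 CPM (-3.73 ± 0.29), while that at 100567451 stood at 0.472, 0.653 and 0.824 CPM in WT-LSK and 0.690, 0.586 and 0.662 CPM in URE-LSK. The level of the latter overlapped between genotypes. In GMP the regions at 100570026 and 100569270 had log2 fold changes of -0.64 and -0.48. Beyond the gene start, the region at 100573292 rose in GMP (1.29).

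In Rin3 the fall in LSK came from 1 region. Its promoter region at 102354184 fell from 25.6, 31.0 and 30.6 CPM to 1.57, 3.60 and 4.89 CPM in LSK (-3.11 ± 0.26, adjusted p = 7.56e-08) and was at 27.4, 34.2 and 40.4 CPM in WT-GMP and 34.0, 34.9 and 36.6 CPM in URE-GMP. No other region of the cluster was called in LSK, and when promoters were left out of every chain the sum had a log2 fold change of 0.28 (adjusted p = 0.16), in a fit where the median of all chains was 0.30 in place of 0.07. In GMP the region at 102348460 rose from 27.8, 24.0 and 18.8 to 50.4, 50.8 and 51.5 CPM (1.12 ± 0.24).

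Rhoq, the gene of a small GTPase (chr17:86957785-86973409, 12 regions), had the smallest p for an uneven response besides Spi1, while its sum hardly moved (-0.22 ± 0.08 in LSK and 0.13 ± 0.08 in GMP). Its intronic region at 86967612 fell from 6.85, 7.02 and 8.37 CPM to 0.0714, 0.586 and 0.0641 CPM in LSK (-5.04 ± 0.48) and by 3.40 ± 0.44 in GMP. About 3 kb away the region at 86964511 stood at 14.1, 16.8 and 18.7 CPM in WT-LSK and 15.4, 20.9 and 13.1 CPM in URE-LSK, and rose in GMP from 8.37, 11.4 and 11.0 to 21.7, 25.6 and 23.04 CPM. In the Pde2a cluster (chr7:101496824-101504897), which also covers the predicted gene Gm45837, both ends moved apart: the region at 101503918 fell by 4.17 ± 0.29 in LSK and by 3.81 ± 0.27 in GMP, and the region at 101498374 rose by 2.29 ± 0.47 and 2.65 ± 0.33. The rising region reached 17.8, 16.3 and 15.7 CPM in URE-GMP from 3.14, 3.69 and 1.13 CPM in WT-GMP.

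The cluster nearest Cryaa, intergenic throughout, also held both directions. Its region at 31739524 went from 1.92, 1.43 and 1.77 CPM to 0.0476, 0.0837 and 0.0854 CPM in LSK. The region at 31731945 was at 0, 0.0408 and 0.0201 CPM in WT-LSK and rose in GMP from 0.377, 0.231 and 0.2996 to 2.35, 2.72 and 2.96 CPM (3.18 ± 0.35). In Pnpla1 the first region, at 28872265, accounted for the largest rise, from 1.59, 1.36 and 0.599 to 19.8, 20.1 and 17.3 CPM in GMP (4.04 ± 0.33), and it also rose in LSK (1.94 ± 0.41).

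Even clusters were few. The test did not call 10 clusters in LSK and 6 in GMP, 4 of them in both, and these were picked here after their values were seen. The most even was a tandem array of interferon zeta genes with 12 promoter regions (chr4:88773089 onward, at Ifnz and 11 predicted genes). Its log2 fold changes lay between 0.14 and 0.308 in LSK and had an SD of 0.0459, but the 12 sequences were near copies of each other, with a median identity of 98.5%, so that reads could be split among them and the 12 values are uncertain. A group of 8 regions near Hist1h4h, a histone gene, that holds 7 transfer RNA genes had an SD of 0.138 in LSK and 0.219 in GMP. The Hoxa7, Hoxa9 and Hoxa10 cluster (11 regions, SD 0.222 in LSK) and the Meis1 (0.328) and Bahcc1 (0.247) clusters were even in LSK. In GMP the sums of these 3 changed by -0.52 ± 0.10, -1.15 ± 0.10 and -0.85 ± 0.10, and the test called an uneven response in each.

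Regions close to each other were more alike. Neighbours less than 300 bp apart in a cluster had log2 fold changes that correlated at 0.43 in LSK (446 pairs), those 300 to 1000 bp apart at 0.20 (849 pairs) and those 1000 to 3000 bp apart at 0.11 (1265 pairs), as a description across pairs that share libraries. In GMP the values were 0.38, 0.34 and 0.15. In the other chains the correlations were higher, at 0.54, 0.29 and 0.16 in LSK and 0.64, 0.44 and 0.30 in GMP. Where both neighbours were called, they moved in opposite directions in 8.57% of 35, 30.3% of 89 and 35.4% of 158 pairs in LSK. In GMP they did so in 18% of 50, 27.7% of 101 and 31.2% of 160 pairs. The same shares in the other chains were 9.0%, 21.7% and 29.8% in LSK and 3.99%, 15.2% and 25.2% in GMP. Across cell types the order was largely kept: over the regions of a cluster, the log2 fold changes in LSK and GMP correlated with a median of 0.825, above 0.5 in 268 clusters and below 0 in 4. These 2 comparisons use different libraries, although same-numbered ones may share a mouse. No such correlation was taken over other chains.

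Members with the PU.1 site fell more often than the others. The site was present in 279 of 2891 members (9.65%, against 10.5% of all regions, which are somewhat narrower). Their median log2 fold change was -0.64 in LSK and -0.47 in GMP, while that of the members without it was 0.16 and 0.13. In LSK 40.5% of them were called lower and 2.15% higher, against 18.6% and 9.95% of the others. Within clusters, where both kinds of region share their surroundings, the regions with the site had the lower median log2 fold change in 138 of 178 clusters in LSK and in 138 of 178 in GMP. The share called lower among all regions with the site was 51.9% in LSK, so the members with it were called lower less often than such regions in general.

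The other sites showed smaller differences. Members with the C/EBP site (570, 19.7% against 20.5% of all regions) were called higher in GMP in 19.8%, against 11.1% of the rest, and were lower than the rest of their cluster in 102 of 264 clusters. With the RUNX site (445 members, 15.4% against 17.3%) 13.9% were called higher in LSK, against 8.34% without it, and 13.0% and 12.8% in GMP. Medians with and without the ETS (43 members, 1.49% against 1.88%), GATA (169, 5.85% against 5.43%) and AP-1 (450, 15.6% against 15.1%) sites differed by under 0.3 in both cell types. A match is a stretch of letters, and binding was not measured.

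**Figure D5:**
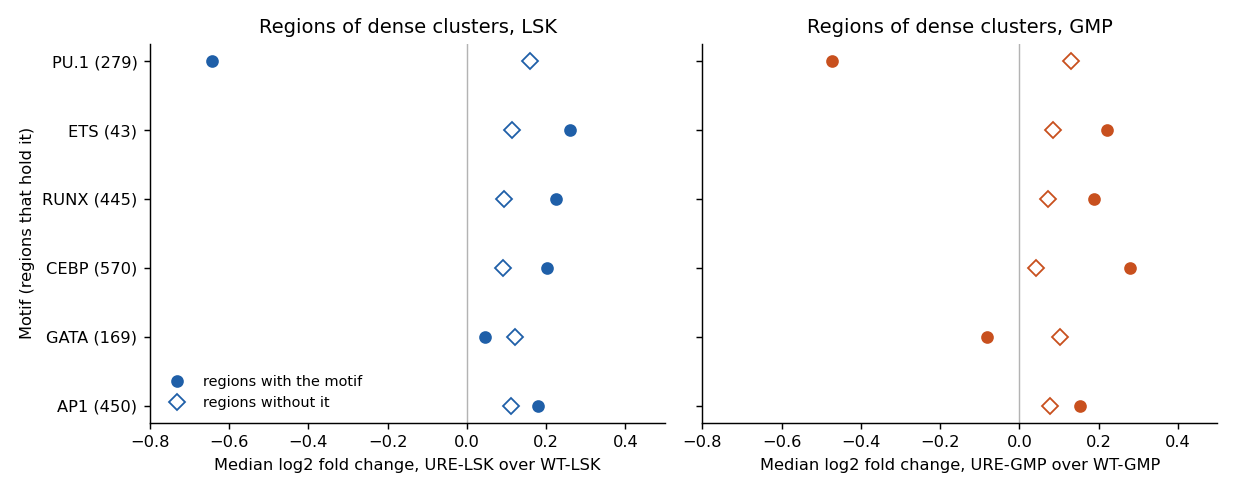
Median log2 fold change (URE over WT) of the dense cluster regions with (filled) and without (open) each of 6 motifs in LSK (left) and GMP (right), with the number of regions that hold the motif in parentheses. The PU.1 site stands apart at -0.64 in LSK and -0.47 in GMP; the others lie between -0.08 and 0.28.

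At the blood genes of the 7 lists examined lay 15 clusters. The share of other genes with a cluster was not taken, so this count is called neither low nor high. Of 22 stem and progenitor factors, 8 had a cluster within 5 kb of their start or over their body (Bcl11a, Erg, Etv6, Fli1, Hoxa9, Ikzf1, Lmo2 and Meis1), with 85 regions. Among them, 9 fell and 3 rose in LSK, with a median of 0.09, and in GMP 21 lower and 6 higher, with a median of -0.32. Beside them, 20.8% of all members were called lower in LSK and 19.3% in GMP. The GMP count leaned on the Meis1 cluster, most of whose regions were called lower, as given above. Among the sums of these 8 clusters only that of Meis1 was called, in GMP. Of 23 myeloid factors 3 had a cluster. At Runx2 4 of 9 regions rose in GMP and 0 fell, and its sum had a log2 fold change of 0.61. At Nr4a1, an orphan nuclear receptor, 5 of 8 regions fell in LSK and 4 in GMP, with a sum at -0.21 ± 0.17 and -0.57 ± 0.17. The third was Spi1.

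The granule gene cluster over Prtn3, Elane and Cfd had 2 regions called higher and 2 lower in LSK and 2 higher in GMP. Ncf4, the 1 cluster at a monocyte gene, fell in LSK with 4 of 9 regions, among them its promoter and the region at 78257199, which went from 16.4, 19.6 and 16.4 to 5.88, 7.90 and 11.1 CPM (-1.06 ± 0.19) and in GMP had a log2 fold change of 0.00 ± 0.17. Gata3 and Gp1bb, at lymphoid and megakaryocyte genes, had 1 called region each in either cell type, lower at Gata3 and higher at Gp1bb. None of 19 growth factor and cytokine receptor genes had a dense cluster.

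Among the clusters with the most regions, Myh9, Iqsec1 and Adgrg1 held opposite responses beside a sum that moved little. This is not particular to them: both directions were called in 43.1% of all dense clusters in LSK and 47.4% in GMP. At Myh9, the heavy chain of nonmuscle myosin IIA (16 regions), 7 regions were called higher and 4 lower in LSK, and the sum changed by 0.21 ± 0.12 (adjusted p = 0.152). At Iqsec1 6 regions rose and 4 fell in GMP (sum 0.44). At Adgrg1 1 region was called in each direction in LSK, with an SD of 0.763. Lrp1 differed from these, since 12 of its 17 regions fell in LSK and 10 in GMP, with 1 higher.

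At the edge of the rule, the 240 chains of 7 regions had 12 called sums in LSK and 15 in GMP and 230 and 231 uneven responses. The 129 chains of 8 regions had 9 and 6 called sums and 126 uneven responses in either cell type.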

How the data were processed

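Open chromatin was measured by OmniATAC in 12 libraries. The authors deposited whole-number counts of reads per region, not normalized: per the labels' notes and the study's methods, reads were trimmed with cutadapt and aligned with Bowtie2 to GRCm38, PCR duplicates and reads off the main chromosomes were dropped, open regions came from Genrich run on each group and bedtools to merge them, and featureCounts counted reads. Region starts were taken as counted from 0 and are printed from 1. Promoters, genes and UTRs came from GENCODE M21, transfer RNA genes and sequence from RefSeq (GRCm38).

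Counts of single regions, and sums over the regions of each chain, were fitted with edgeR 4.0.16 in R 4.3.3 (TMM scaling, quasi-likelihood test, 1 term per group, all 12 libraries sharing the dispersion), with Benjamini-Hochberg adjustment over all 121336 regions or 76640 chains; calls needed an adjusted p under 0.05 and a log2 fold change over 1 in size. edgeR's filter on low counts removed 0 of either. Unequal responses within a chain were tested with diffSpliceDGE. CPM are counts divided by TMM-scaled totals, over all regions for single regions and over the regions under 1500 bp for chain sums, so the sums exceed the added CPM of their regions. The steps were tested on simulated data with known answers. The common biological coefficient of variation was 0.185 for regions and 0.171 for chains, and each group had 3 mice. The labels do not say which libraries came from 1 mouse. Deviations of same-numbered libraries from their group means correlated at 0.181 to 0.207 between WT-LSK and WT-GMP. Between genotypes they correlated at -0.0616 to 0.102 (LSK) and 0.0997 to 0.349 (GMP). These values do not settle the pairing. The main fit used no pairing, so its tests across cell types left any shared mouse out of account. The replicate block, an alternative, took the replicate number as a term across all groups. Alternatives covered scaling, filters, the replicate block, DESeq2 1.42.0, the rule's settings and each library left out.

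The clusters and gene lists were chosen with earlier results of these data known. Named clusters were the 8 with the most regions; in each genotype contrast the 3 called clusters with the smallest p per direction, the 2 called clusters with the smallest and the 2 clusters with the largest SD among regions, and the 2 with the smallest p for an uneven response; the 2 with the smallest interaction p; the Spi1 cluster; and up to 3 per gene list. The 3 per direction were taken among clusters whose 3 URE libraries lay on the same side of all 3 WT libraries. Clusters were named by the protein-coding genes they overlap, otherwise by the nearest start. Some clusters that met this rule are not reported here.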

Additional observations from a re-analysis of the deposited data

Results flagged for a closer look

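The genotype effect differed between LSK and GMP, by the interaction test in edgeR, in 13 of the 304 clusters. Among the named clusters the difference (log2 fold change in GMP minus that in LSK) was 2.64 at Plac8, 2.05 at Rin3, 1.66 at Pde2a, 1.53 at Krt80 and 1.24 at Ncf4, which fell in LSK, and 1.16 at Pnpla1, which rose in GMP. Without URE-LSK replicate 3 the value at Pnpla1 (0.99) was within the fold limit. With promoters left out of every chain those at Rin3 (0.55), Ncf4 (0.79) and Pnpla1 (0.94) were too; this fit also moved the median of all chains by -0.187, and Pnpla1 holds no promoter. Groups of 3 libraries were not tested for outlying samples.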

How the results depend on the processing

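Of the 12 leave-one-out fits, the share of clusters called was 3.95% to 4.93% in LSK, 3.29% to 4.28% in GMP, 3.29% to 4.93% for the interaction and 4.28% to 7.89% between WT-GMP and WT-LSK, where leaving out URE-LSK replicate 3, WT-GMP replicate 3 or URE-GMP replicate 3 gave 23, 24 and 23 calls in place of 15. Each of these fits shared 12 or more of 14 calls in LSK and 8 or more of 10 in GMP. Without promoter regions only 6 of 14 calls in LSK and 6 of 10 in GMP were shared. With GC offsets 11 and 8 were shared, with the replicate block and GC offsets 10 and 8, and with DESeq2 11 and 10. Member regions called ranged from 28.5% to 31.9% in LSK and 31.1% to 33.7% in GMP, and uneven responses from 94.7% to 98.4% and 96.4% to 98.0%. Without the fold limit the shares of clusters called were 53.6% in LSK, 60.5% in GMP, 28.0% for the interaction and 59.2% between WT groups, and of member regions 54.7% and 59.3%. With 12 or more regions required, 39 clusters remained, of which 2.56% were called in LSK and 2.56% for the interaction. Without promoter regions 5.28% were called in GMP and 11.6% between WT groups. Between WT groups the share was 8.22% with DESeq2's size factors in edgeR, 8.22% in DESeq2, 8.88% with GC offsets and 8.88% with the replicate block and GC offsets. The replicate block alone gave 14, 10, 13 and 15 called clusters, as without it, and changed no named call. Without promoter regions Rin3 in LSK reversed to 0.28, close to the median of all chains in that fit (0.30). Of 19 called values of named clusters, the alternatives left the call in place 407 times and lost it 12 times; besides those given with the results these were, without promoter regions, Lrp1 (-0.89) and Ncf4 (-0.71) in LSK and Retreg1 (-0.99) and Spi1 (-0.99) in GMP. Leaving out promoter regions moved the median of all chains by 0.230 in LSK and -0.187 for the interaction, so its values mix both changes. GC offsets moved the median of all chains by 0.152 in LSK and 0.133 in GMP, and of all regions by 0.143 and 0.152, so that directions of small changes depend on the scaling. Uneven responses were called in 92.1% to 98.4% of clusters in LSK under the other alternatives. Depth limits regions near 0 CPM, whose folds rest on few reads. The cause was not tested in any of these.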

Other observations

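A cluster of 10 regions on chromosome X, 9 intronic and 1 exonic, at the noncoding gene Firre (chrX:50595059-50608511), did not follow genotype or cell type. Firre is a nuclear long noncoding RNA with many repeats, whose locus is a boundary of the inactive X chromosome, and some of its regions are near copies of each other. Its summed level was 2.23, 121.3 and 123.8 CPM in WT-LSK and 2.12, 71.0 and 105.6 CPM in WT-GMP. With the deletion it was 4.08, 145.1 and 5.41 CPM in LSK and 9.57, 90.6 and 11.7 CPM in GMP. The Xist start site region was at 0.157, 14.7 and 13.2 CPM, 0, 13.0 and 12.3 CPM, 0.0476, 17.0 and 0.256 CPM and 0.258, 16.3 and 0.291 CPM in the same order. The 6 libraries high in Xist were the 6 high at Firre, and same-numbered libraries of a genotype matched across cell types. Its log2 fold changes had standard errors of 1.31 in both cell types, so the test for an uneven response says little there. High libraries were 2 of 3 in the WT groups and 1 of 3 in the URE groups, and of the 5 clusters on chromosome X 0 were called in LSK and 0 in GMP. The sex of the animals is not given in the labels, and its part in other results was not tested.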
